A study of Mus musculus with 6 samples.

Results

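Adrenal cortex zonation genes are genes whose expression marks a layer of the steroid-producing cortex. The set holds 9 symbols, and 9 of 9 were found among the 27998 genes of the count table: Cyp11b1, Cyp11b2, Hsd3b1, Hsd3b6, Dab2, Vsnl1, Agtr1b, Wnt4 and Akr1c18. They were found by symbol, and the set was chosen with earlier results of these data known. They were read per cell barcode in adrenal cortex cells, defined as cells in which Cyp11a1 held at least 0.1% of UMIs. A UMI is a molecular tag that counts 1 captured transcript. The study profiled 3 organs of the stress axis by droplet single-cell RNA sequencing: the adrenal gland, the pituitary and the hypothalamic paraventricular nucleus (PVN). All animals were C57BL/6 mice of 10 weeks. The control groups were unstressed, and the stress groups went through 21 days of chronic social defeat, a paradigm in which a mouse is repeatedly exposed to an aggressive conspecific. Each organ gave 1 control and 1 stress library, each from a pool of 5 mice, so no comparison between control and stress below has a replicate or a test. Intervals are 95% intervals that cover counting error only, and differences between mice within a pool were not measured.

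The mouse adrenal cortex is layered from the capsule inwards. The outer zona glomerulosa makes aldosterone under the control of angiotensin II and potassium, with aldosterone synthase (Cyp11b2) as its last enzyme. The zona fasciculata beneath it makes corticosterone under the control of ACTH, with 11β-hydroxylase (Cyp11b1) as its last enzyme. Cells are known to arise at the outer side and to move inwards, Wnt ligands such as Wnt4 act in the outer layer, and the innermost X-zone regresses in males at puberty.

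The adrenal cortex cells numbered 1654 in the control library (76.5% of 2161 kept cells) and 1883 in the stress library (68.7% of 2742). Their median depth was 11736 and 11390 UMIs, and their median mitochondrial share was 6.00% and 6.15%. Cortex markers other than Cyp11a1 were present as the label requires: Star had a UMI in 99.8% and 99.7% of the cells, Mc2r in 91.4% and 91.1%, and Nr5a1 in 83.7% and 86.5%. Markers of other adrenal cell types were low in the same cells but moved between the libraries. The 3 macrophage genes C1qa, C1qb and C1qc summed to 88.4 and 134 CPM (the UMIs of a gene per 1000000 UMIs of the same cells), with 78.1% and 56.3% of cells at 0. The 4 endothelial genes summed to 36.8 and 60.1, the 5 chromaffin genes to 30.7 and 33.2, and the 5 stromal genes to 0.41 and 0.96. Their part in the results below was not tested, except where a value without such barcodes is given. The mitochondrial limit removed 130 of 2330 control and 378 of 3183 stress adrenal barcodes. The adrenal libraries shared 10 barcode sequences, 3 of them cortex cells in both. Just below the Cyp11a1 threshold, between 0.05% and 0.1% of UMIs, lay 51 and 137 barcodes with median depths of 5326 and 4638 UMIs. Just above it, between 0.1% and 0.2%, lay 76 and 126 barcodes with median depths of 11764.5 and 17299.5.

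Both enzyme pairs lie close together in the genome. The GENCODE vM21 annotation (GRCm38, of which mm10 is another name) places Cyp11b1 (ENSMUSG00000075604) at chr15:74834125-74841643 and Cyp11b2 (ENSMUSG00000022589) at chr15:74851010-74856318, both on the minus strand. Hsd3b6 (ENSMUSG00000027869) lies at chr3:98805504-98814443 and Hsd3b1 (ENSMUSG00000027871) at chr3:98852194-98859794, both on the minus strand. Agtr1b (ENSMUSG00000054988) lies on the same chromosome at chr3:20314473-20367177, minus strand, and Dab2 (ENSMUSG00000022150) at chr15:6299788-6440712, plus strand. Vsnl1 (ENSMUSG00000054459) lies at chr12:11325242-11436613, minus strand, Wnt4 (ENSMUSG00000036856) at chr4:137277489-137299726, plus strand, and Akr1c18 (ENSMUSG00000021214) at chr13:4132615-4150654, minus strand. All 9 are protein coding.

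The start regions of 3 members are shown because the 3β-hydroxysteroid dehydrogenase genes Hsd3b6 and Hsd3b1 went opposite ways between the libraries, and because Vsnl1 ran with Wnt4 across cells. Vsnl1 ran more closely with Dab2 than with Wnt4, and of its 2 start regions only that with a motif match is shown. The motifs were chosen after seeing the data. RefSeq promoters (GRCm38.p6) were found for 7 of the 9 members, as 9 entries, and not for Cyp11b1 or Cyp11b2. Each line below holds the 250 bases before a start site, 5′ to 3′ on the gene's strand, with capitals at a matched motif. The motifs searched on both strands were a GATA site (AGATAA, in 11.2% of the 32851 promoters of the same length), an Nr5a1 site (AAGGTCA, 4.72%), a Tcf/Lef site (ATCAAAG, 3.73%), an E-box (CACGTG, 7.15%), a D-box (TTATGTAA, 0.938%) and a cAMP response element (TGACGTCA, 1.79%); none of these words holds another. Capitals mark a GATA match starting 31 bases before the start site of Hsd3b6, a GATA match on the other strand starting 134 bases before that of Hsd3b1, and a Tcf/Lef match on the other strand starting 62 bases before 1 of the 2 start sites of Vsnl1. A match is a description of letters and not evidence of binding.
Hsd3b6, chr3:98814444-98814693, minus strand: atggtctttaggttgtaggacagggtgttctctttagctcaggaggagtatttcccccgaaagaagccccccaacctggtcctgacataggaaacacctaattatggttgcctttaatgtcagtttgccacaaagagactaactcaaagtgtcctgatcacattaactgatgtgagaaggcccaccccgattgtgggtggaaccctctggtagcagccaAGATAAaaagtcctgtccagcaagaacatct
Hsd3b1, chr3:98859795-98860044, minus strand: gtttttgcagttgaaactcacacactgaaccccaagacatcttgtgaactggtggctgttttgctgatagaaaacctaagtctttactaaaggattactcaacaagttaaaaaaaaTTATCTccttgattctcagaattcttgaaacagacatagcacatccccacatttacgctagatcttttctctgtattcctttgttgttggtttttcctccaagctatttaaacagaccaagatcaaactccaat
Vsnl1, chr12:11435652-11435901, minus strand: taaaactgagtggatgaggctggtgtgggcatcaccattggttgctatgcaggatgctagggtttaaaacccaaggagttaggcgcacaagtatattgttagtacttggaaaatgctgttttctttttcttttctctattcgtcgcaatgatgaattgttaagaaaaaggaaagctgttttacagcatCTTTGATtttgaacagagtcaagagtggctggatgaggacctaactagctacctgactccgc
Of the other entries, Akr1c18 held a D-box on the other strand starting 192 bases before its start site, and 1 Dab2 entry held a GATA match 15 bases after its start site. Agtr1b, Wnt4, the other Vsnl1 entry and the other Dab2 entry held none of the 6 motifs in the 300 bases searched.

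Across the cortex cells, levels in CPM are tag counts and were not divided by transcript length, so each gene is compared with itself. Of the 9 members, 8 had the 50 UMIs over both libraries required for a ratio. Hsd3b6 was the 1 member at least 1.5-fold apart, and it was higher in stress; 3.73% of the 11944 genes tested were at least 1.5-fold higher, and 6.48% were at least 1.5-fold apart in either direction. No member was 1.5-fold lower, against 2.75% of all genes. Of the 8 members, 5 were higher and 3 were lower in stress, beside 54.2% of all genes higher. For 7 of the 8 the counting interval of the ratio lay apart from 0, which held for 33.8% of all genes. Whether an interval covers 0 depends on the number of UMIs. The members ranged from 463 and 716 UMIs (Cyp11b2) to 117686 and 98011 (Hsd3b1), while the other genes entered from 50, so these shares are not like for like. The median log2 ratio was 0.11 over the members and 0.02 over all genes tested. The plot of levels sets the cortex cells beside the barcodes that pass the macrophage gate (C1q genes at 0.1% of UMIs or more) and not the Cyp11a1 rule.

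**Figure D1:**
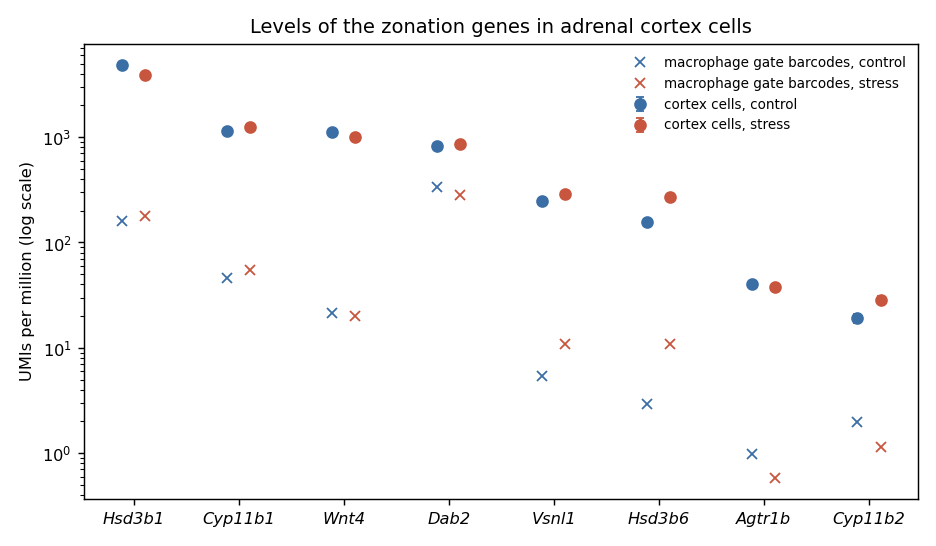
Level of 8 zonation genes in adrenal cortex cells (circles, 1654 control and 1883 stress cells, 95% Poisson intervals, smaller than most symbols) and in adrenal macrophage barcodes (crosses, 303 and 492), in CPM on a log axis. Hsd3b6 shows the widest gap between control (157) and stress (271), and Dab2 lies closest to its level in macrophage barcodes (337 and 280).

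Cyp11b1, which converts deoxycorticosterone to corticosterone, stood at 1136 CPM in control cortex cells and 1253 in stress. The log2 ratio of stress over control was 0.14 (0.12 to 0.16). Its spread over cells differed more than its mean. Cells without a Cyp11b1 UMI made up 19.8% of control and 9.67% of stress cells. Cells at 500 to 1000 CPM made up 12.3% and 16.8%, cells at 1000 to 2000 made up 15.1% and 21.6%, and cells at 4000 or more made up 3.87% and 3.88%. The top of the distribution was thus alike in size in both libraries, while stress held fewer cells at 0 and more in the middle. After every cell was thinned to 3000 UMIs, 63.9% of control cells (61.5 to 66.2) and 77.1% of stress cells (75.1 to 78.9) had a Cyp11b1 UMI, beside 80.2% and 90.3% at full depth. Macrophage barcodes, which should lack the transcript, had a Cyp11b1 UMI in 12.2% and 14.8% at the same depth of 3000, with median depths of 6223 and 6500.5 UMIs before thinning.

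**Figure D2:**
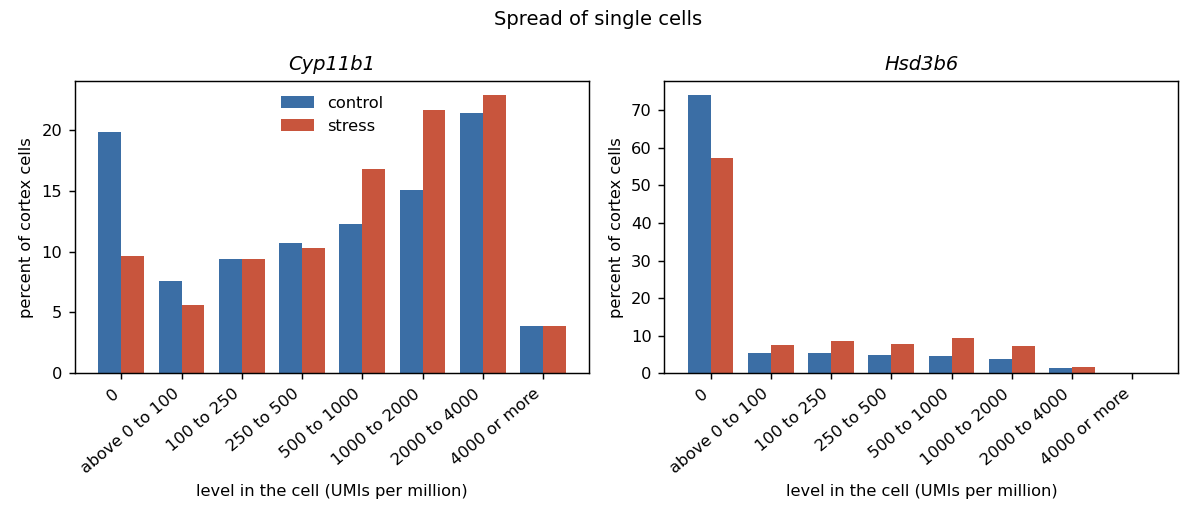
Percent of adrenal cortex cells in each range of Cyp11b1 and Hsd3b6 level (CPM of the cell), control and stress. For Cyp11b1 the bar at 0 is 19.8% in control and 9.67% in stress, and for Hsd3b6 it is 74.1% and 57.4%.

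Cyp11b2, aldosterone synthase, was a low transcript held by few cells. It had 463 UMIs in the control and 716 in the stress cortex cells, which gave 19.1 (17.4 to 20.9) and 28.6 (26.5 to 30.7) CPM. The log2 ratio was 0.58 (0.41 to 0.75), a fold of 1.497 that lies just under the 1.5-fold mark. At 3000 UMIs per cell, 4.47% of control cells (3.53 to 5.58) and 6.59% of stress cells (5.51 to 7.80) had a Cyp11b2 UMI, and the intervals overlapped by a narrow margin. At full depth the shares were 17.5% and 19.8%, and no cell held more than 7 UMIs in control or 14 in stress. Among macrophage barcodes the thinned shares were 0.66% and 0. In the last 500 bases of its transcript, where tags of this chemistry mostly fall, 34.5% of the 31-base words of Cyp11b2 occurred in Cyp11b1, while none of the words in the last 500 bases of Cyp11b1 occurred in Cyp11b2. A read that lies wholly within such words cannot be told apart between the genes, so the Cyp11b2 counts are uncertain to that extent. For Cyp11b1, 10.6% of the words in the last 500 bases recurred in genes other than Cyp11b2. Cyp11b1 also overlaps 1 gene on the other strand, which had 3 and 1 UMIs in the cortex cells.

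The 3β-hydroxysteroid dehydrogenases, which turn pregnenolone into progesterone, went opposite ways. Hsd3b6, the form known for the zona glomerulosa of the mouse, stood at 157 CPM (3821 UMIs) in control and 271 (6799 UMIs) in stress. This was a log2 ratio of 0.78 (0.73 to 0.84), or 1.72-fold (1.66 to 1.79). Hsd3b1, the main form of the cortex, stood at 4849 and 3910, a log2 ratio of -0.31 (-0.32 to -0.30). Hsd3b6 therefore made up 3.14% (3.05 to 3.24) of the summed Hsd3b1 and Hsd3b6 UMIs in control and 6.49% (6.34 to 6.64) in stress. This is a share of tags, read between the libraries only. How far the words that each gene shares with other genes, given below, affect it was not tested. With every cell at 3000 UMIs, Hsd3b6 was found in 16.7% of control cells (14.9 to 18.6) and 28.9% of stress cells (26.9 to 31.1), and Hsd3b1 in 99.4% and 99.5%. At full depth the Hsd3b6 shares were 25.9% and 42.6%.

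Both the number of Hsd3b6 cells and the size of the groups with many UMIs were larger in stress. Cells with 1 to 9 Hsd3b6 UMIs at full depth made up 17.5% and 29.0%, and cells with 10 or more made up 8.46% and 13.6%, classes that were chosen after the values were seen. Within the class of 10 or more UMIs the Hsd3b6 level was 1093 CPM in control and 1192 in stress, in a class whose floor is set by the rule. A cell held up to 68 Hsd3b6 UMIs in control and 90 in stress, beside a median of 0 in both. Of the 1566 and 1751 cells with at least 20 UMIs of both genes together, 16 and 29 cells had 50% or more of them from Hsd3b6, and 101 and 214 cells had 20% or more. Macrophage barcodes also differed, at an Hsd3b6 level of 2.96 and 11.0 CPM, with thinned shares of 0.99% and 4.07%. In the last 500 bases of Hsd3b6, 41.7% of the 31-base words recurred in another gene. Over its whole transcript the gene that shared the most words was Hsd3b2, which itself had 14 and 23 UMIs. The corresponding share for Hsd3b1 was 2.77%.

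Dab2, an endocytic adaptor used as a marker of the zona glomerulosa, stood at 821 and 862 CPM (log2 ratio 0.07, 0.04 to 0.10). It was found in 71.9% of control and 74.6% of stress cells at 3000 UMIs. Macrophages express Dab2 as well, at 337 and 280 CPM in the macrophage barcodes, where 58.4% and 51.0% of thinned barcodes had a UMI. Without the 41 control and 52 stress cortex barcodes that passed the gate of another cell type, the Dab2 ratio was 0.08.

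Vsnl1, a calcium sensor, was higher in stress at 248 and 290 CPM (log2 ratio 0.23, 0.18 to 0.28), with thinned shares of 39.3% and 44.9%. The angiotensin II receptor gene Agtr1b stood at 40.7 and 37.7, with a log2 ratio of -0.11 (-0.24 to 0.02) whose interval covers 0. Its thinned shares were 10.1% and 9.51%. Wnt4, a secreted Wnt ligand of the outer cortex, was lower in stress at 1113 and 994 (log2 ratio -0.16, -0.19 to -0.14), while the thinned shares were 79.5% and 79.4%. Words in the last 500 bases of Wnt4 recurred in other genes for 16.4%, and none did for Dab2, Vsnl1 or Agtr1b.

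Akr1c18, a 20α-hydroxysteroid dehydrogenase known as a marker of the X-zone, had 0 UMIs in control cortex cells and 1 UMI in stress. Taken as 3 counts, the limit that a count of 0 allows was 0.124 CPM in the control library, and a share of up to 0.181% of control cells with a UMI. The upper ends of the 95% exact intervals were 0.152 CPM and 0.223%. The X-zone marker Pik3c2g had 0 UMIs in both. In the same cells Xist, transcribed from the inactive X chromosome of females, had 0 and 2 UMIs, and the Y-linked gene Ddx3y had 2121 and 2050.

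Zonation was next read as co-expression within single cells, on counts thinned to 3000 UMIs per cell. The 8 members with counts form 28 pairs. In 26 of the 28 pairs Spearman's rho had the same sign in both libraries, 14 positive and 12 negative, and the largest difference between the libraries was 0.16, for Hsd3b1 and Dab2. No such count was made over pairs of other genes, so the agreement in sign cannot be read as particular to this set. These correlations are descriptions over 1654 and 1883 cells that share a library, and sparse counts hold them near 0.

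**Figure D3:**
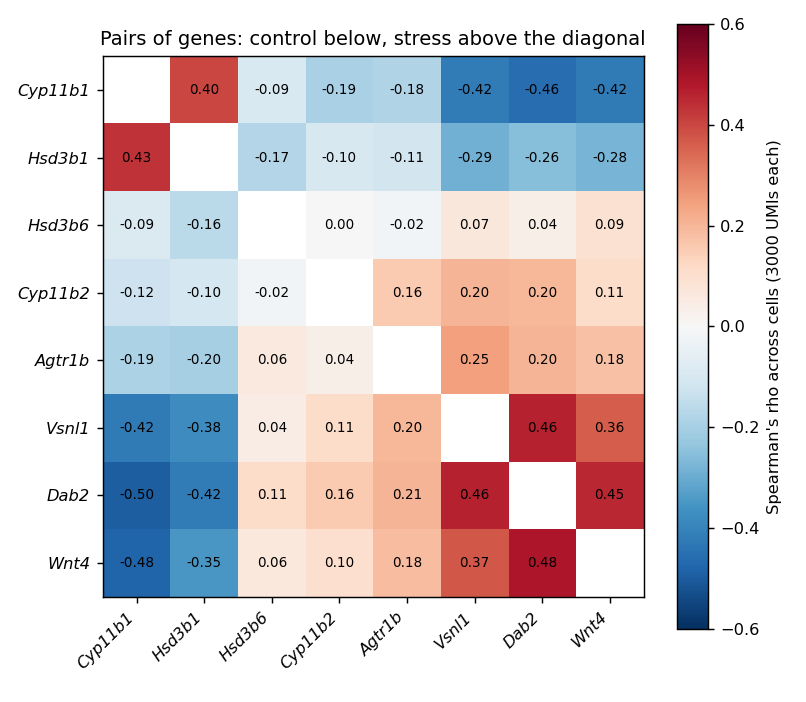
Spearman's rho between pairs of zonation genes across adrenal cortex cells thinned to 3000 UMIs, control below and stress above the diagonal. Dab2, Vsnl1 and Wnt4 form a positive group (0.36 to 0.48), and Cyp11b1 is negative with each of them (-0.50 to -0.42).

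Dab2, Vsnl1 and Wnt4 varied together, with rho of 0.48 and 0.45 for Dab2 and Wnt4, 0.46 and 0.46 for Dab2 and Vsnl1, and 0.37 and 0.36 for Vsnl1 and Wnt4. Cyp11b1 ran against them, with -0.50 and -0.46 for Dab2, -0.48 and -0.42 for Wnt4, and -0.42 and -0.42 for Vsnl1. Cyp11b1 and Hsd3b1 were positive at 0.43 and 0.40. Agtr1b followed the outer group with lower values, 0.20 and 0.25 with Vsnl1 and 0.21 and 0.20 with Dab2. Hsd3b6 stood apart from the other zona glomerulosa markers: its rho was 0.11 and 0.04 with Dab2, 0.04 and 0.07 with Vsnl1, 0.06 and 0.09 with Wnt4, and -0.02 and 0.00 with Cyp11b2. It was -0.16 and -0.17 with Hsd3b1.

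The final enzymes of both zones were seldom found in the same cell at this depth. In control, 30 cells (1.81%) had a UMI of both Cyp11b1 and Cyp11b2, 44 (2.66%) of Cyp11b2 alone, 62.1% of Cyp11b1 alone and 33.4% of neither. In stress, 59 cells (3.13%) had both, 65 (3.45%) Cyp11b2 alone, 73.9% Cyp11b1 alone and 19.5% neither. Cells with both were 0.63 times (0.43 to 0.91) the product of the separate shares in control and 0.62 times (0.47 to 0.80) in stress. Of the cells with a Cyp11b2 UMI, 40.5% and 47.6% also had a Cyp11b1 UMI, which is above the 12.2% and 14.8% of macrophage barcodes. That comparison covers Cyp11b1 only. Most of these cells held a single Cyp11b2 UMI, since 0.36% and 0.85% of cortex cells had 2 or more. Whether such a UMI was free RNA, or a Cyp11b1 read within shared words, was not tested. At full depth, where deeper cells detect more of both genes, the ratio to the product was 0.98 and 0.88.

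Cyp11b2 was found with Vsnl1 and Dab2 more often than the product of the shares. The ratio was 1.55 (1.13 to 2.07) and 1.76 (1.43 to 2.15) with Vsnl1, and 1.32 (1.03 to 1.66) and 1.29 (1.07 to 1.54) with Dab2. With Agtr1b it was 1.47 (0.73 to 2.63) in control and 2.80 (1.93 to 3.93) in stress, and with Wnt4 1.19 (0.93 to 1.5) and 1.19 (0.98 to 1.42), with 1 inside both intervals. Vsnl1 and Agtr1b gave 1.69 and 1.77. For Cyp11b2 and Hsd3b6 it was 0.89 (0.44 to 1.59) and 1.00 (0.70 to 1.39), so these markers of the same zone met in a cell about as often as the shares alone give.

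Graded by Cyp11b2 UMIs at full depth, cells with 0, 1 and 2 to 9 UMIs numbered 1365, 180 and 109 in control and 1511, 206 and 165 in stress. Their median depths were 11355, 13932.5 and 20686 UMIs in control and 11073, 11826 and 14043 in stress, so the classes also differ in depth. Across them Cyp11b1 went from 1336 over 596 to 284 CPM in control and from 1503 over 622 to 391 in stress. Dab2 went from 663 over 1215 to 1541 and from 678 over 1336 to 1480. Agtr1b went from 31.3 over 63.2 to 84.5 and from 23.8 over 66.3 to 92.2. Hsd3b6 showed no such order in control, at 162, 136 and 153, and in stress it stood at 290, 221 and 213.

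To compare the libraries at a like Cyp11b1 level, the pooled cortex cells were cut into 4 bins at the quartiles of that level, 150.0, 766 and 2068 CPM. Whether a like level is a like position in the cortex was not tested. Where Cyp11b1 itself differs between the libraries, like cells can fall into different bins. The bins use Cyp11b1 itself, whose course across them is fixed by the rule. Bin 1 held 31.9% of control and 18.9% of stress cells, bin 2 held 23.1% and 26.7%, bin 3 held 20.5% and 28.9%, and bin 4 held 24.5% and 25.5%. In bin 1 the Cyp11b1 level was 40.8 and 52.8 CPM, close to the 45.9 and 54.3 of the macrophage barcodes.

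**Figure D4:**
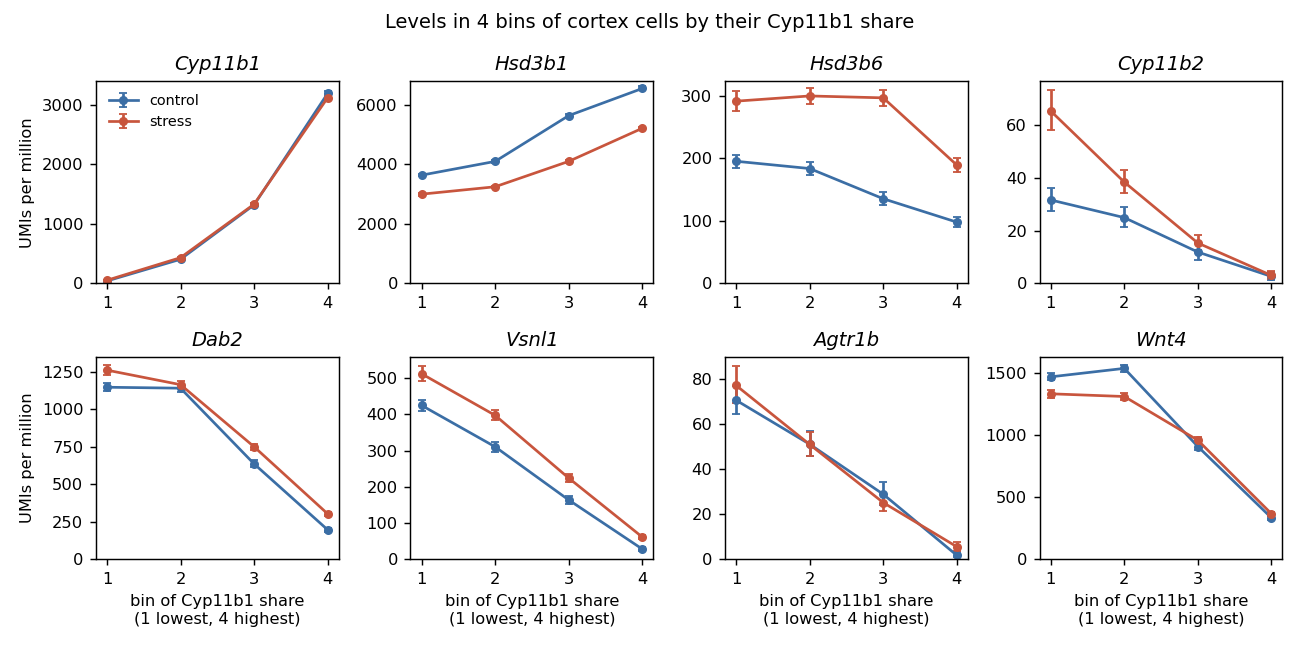
Level (CPM, 95% Poisson intervals) of 8 zonation genes in 4 bins of adrenal cortex cells from the lowest (1) to the highest (4) Cyp11b1 share, control and stress. Vsnl1, Agtr1b, Cyp11b2 and Dab2 are lower in each next bin in both libraries (Dab2 in control from 1147 to 1141 between bins 1 and 2), while Hsd3b6 is nearly level over bins 1 to 3 in stress (292, 300 and 297).

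From bin 1 to bin 4, Agtr1b went from 70.4 to 1.76 CPM in control and from 77.0 to 5.56 in stress. Vsnl1 went from 425 to 28.3 and from 512 to 61.5, Dab2 from 1147 to 197 and from 1261 to 303, and Cyp11b2 from 31.7 to 2.63 and from 65.4 to 3.03. Wnt4 was nearly level between the first bins, at 1472 and 1540 in control and 1335 and 1313 in stress, and then stood at 334 and 368 in bin 4. Hsd3b1 had the opposite course, from 3641 to 6556 and from 3001 to 5217. Hsd3b6 had the shallowest course of the outer markers. It stood at 195, 184, 135 and 98.0 across the bins in control, and at 292, 299.9, 297 and 189 in stress.

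**Figure D5:**
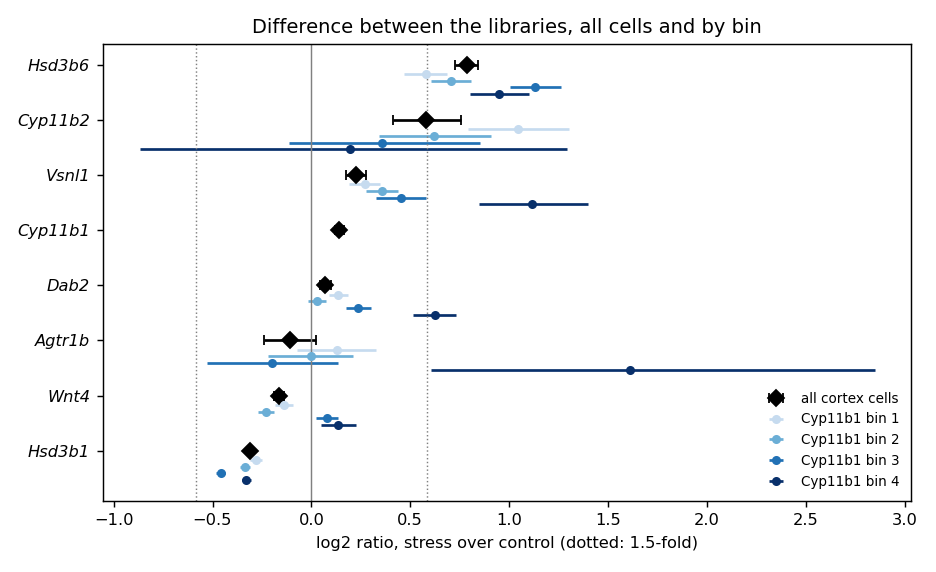
Log2 ratio of stress over control for 8 zonation genes over all adrenal cortex cells (diamonds) and within 4 bins of Cyp11b1 share (circles, light to dark), with 95% counting intervals; dotted lines mark 1.5-fold. Hsd3b6 lies above 0 and Hsd3b1 below 0 in each of the 4 bins, and Cyp11b1 is not shown within its own bins.

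Within the bins Hsd3b6 was higher in stress in each of the 4, with log2 ratios of 0.58, 0.71, 1.13 and 0.95, and Hsd3b1 was lower in each of the 4, with -0.28, -0.34, -0.46 and -0.33. The widest Hsd3b6 interval was 0.80 to 1.10, in bin 4. The Cyp11b2 ratio was 1.05 (0.79 to 1.30) in bin 1, 0.62 (0.34 to 0.91) in bin 2, 0.36 (-0.11 to 0.85) in bin 3 and 0.19 (-0.87 to 1.29) in bin 4, from 15 and 18 UMIs. Vsnl1 gave 0.27, 0.36, 0.45 and 1.12, and Dab2 0.14, 0.03, 0.24 and 0.62. Both thus had their highest ratio where their level was lowest. Agtr1b gave 0.13, 0.00, -0.20 and 1.61, the last from 10 and 33 UMIs. With the 4 bins given equal weight, Cyp11b1 stood at -0.01 and Agtr1b at 0.06, Cyp11b2 at 0.78 and Hsd3b6 at 0.81. For Cyp11b1 that value near 0 follows from the bins, which are cut on it. Wnt4 gave -0.14, -0.23, 0.08 and 0.14.

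Cells with more Hsd3b6 were lower in Hsd3b1. Over the classes of 0, 1 to 9 and 10 or more Hsd3b6 UMIs, Hsd3b1 stood at 5091, 4573 and 3788 CPM in control and at 4199, 3708 and 3352 in stress. Cyp11b1 stood at 1217, 1085 and 699 in control and at 1427, 1076 and 1019 in stress. Dab2 stood at 771, 885 and 1030 in control and at 799, 942 and 912 in stress. The median depths were 11422, 13937 and 15612 UMIs in control and 11022, 11617.5 and 12528 in stress. In the cells without an Hsd3b6 UMI, Hsd3b1 was also lower in stress than in control.

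The genes most like each member across cortex cells were taken from 9592 genes by Pearson's r of log-scaled counts, which depends on depth. The value for control is given first. For Cyp11b1 they were Me1, a malic enzyme that supplies NADPH (0.56 and 0.52), Acsbg1, an acyl-CoA synthetase (0.60 and 0.50), and Prss35 (0.48 and 0.50). The transcript 1500015O10Rik led the likeness for Dab2 (0.82 and 0.78), Vsnl1 (0.76 and 0.77), Wnt4 (0.75 and 0.70) and Agtr1b (0.48 and 0.47), and was the most opposed to Cyp11b1 (-0.68 and -0.65). Dab2 was followed by Pde2a, a cyclic nucleotide phosphodiesterase (0.70 and 0.65), and Itm2c (0.64 and 0.65), Vsnl1 by Hmgb3 (0.65 and 0.60) and Steap1 (0.60 and 0.60). Wnt4 was followed by Itm2c (0.67 and 0.66) and Cpe, a carboxypeptidase of prohormone processing (0.70 and 0.66), and Agtr1b by Smpx (0.40 and 0.38) and Steap1 (0.35 and 0.41). Acsbg1 was most opposed to Dab2 (-0.67 and -0.55) and Vsnl1 (-0.58 and -0.52), Akr1cl to Agtr1b (-0.37 and -0.36) and Srd5a2, a steroid 5α-reductase, to Wnt4 (-0.61 and -0.56).

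The other members had weaker or different neighbours. For Cyp11b2 they were Tmsb4x, an actin-binding peptide (0.34 and 0.36), 1500015O10Rik (0.34 and 0.41) and Nsf, a membrane fusion ATPase (0.32 and 0.36), with Akr1cl most opposed (-0.29 and -0.37). For Hsd3b1 they were the steroidogenic enzymes Cyp21a1 (0.49 and 0.48) and Cyp11a1 (0.52 and 0.45), and Mgarp (0.47 and 0.39), with Tmsb4x most opposed (-0.49 and -0.37). For Hsd3b6 the leading genes had a low r: they were Ly6d (0.14 and 0.14), Auts2 (0.14 and 0.13) and Eef1g (0.13 and 0.13). Akr1b7 was most opposed to Hsd3b6 (-0.11 and -0.14).

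Wider lists of zone genes split between higher and lower. Over all genes tested the median was 0.02, with 54.2% higher and 6.48% at least 1.5-fold apart. These lists were drawn up with earlier results of these data known, and they hold members of the set. Of 20 zona glomerulosa genes 17 had 50 UMIs, 9 higher and 8 lower in stress, with a median log2 ratio of 0.00 and 1 gene 1.5-fold apart. These are near the shares over all genes. Hsd3b6 was the highest and Nr4a2, an orphan nuclear receptor, the lowest at 99.7 and 68.7 CPM (-0.54). The related receptor gene Agtr1a stood at 376 and 306 (-0.29), and the potassium channel gene Kcnk3 at 1938 and 2018 (0.06). Of 16 zona fasciculata genes 15 had 50 UMIs, 7 higher and 8 lower, with a median of -0.08 and none 1.5-fold apart. Akr1b7, an ACTH-responsive aldose reductase relative, was the lowest at 2761 and 1965 (-0.49), and Nr0b1, a repressor of Nr5a1, the highest at 18.0 and 23.4 (0.37).

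Of 21 Wnt signalling genes 18 had 50 UMIs, 5 higher and 13 lower in stress, with a median of -0.06 and none 1.5-fold apart, beside 54.2% higher and 6.48% 1.5-fold apart over all genes tested. Rspo3, an R-spondin that strengthens Wnt signals, was the lowest at 10.2 and 7.42 (-0.46). Tcf7, a transcription factor of the pathway, was the highest at 41.1 and 50.3 (0.29). Axin2, a common target of the pathway, stood at 38.2 and 35.3 (-0.11, -0.25 to 0.02). Of 13 core steroid synthesis genes 11 had 50 UMIs, 7 higher and 4 lower, with a median of 0.12 and 1 gene, Hsd3b6, 1.5-fold apart, which is near the same shares over all genes. Of 5 X-zone genes 2 had 50 UMIs, Foxo1 at -0.06 and Thrb at 0.33, with a median of 0.13.

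Outside the adrenal, 3 of the members were expressed in other cells. Vsnl1 stood at 373 and 424 CPM in the kept PVN cells (log2 ratio 0.19, 0.15 to 0.22), and at 556 and 623 in those that pass the neuron gate. Wnt4 stood at 29.3 and 27.1 in the PVN, led by the astrocyte gate at 153 and 112, and at 20.6 and 16.3 in pituitary cells that pass the Pomc gate. Dab2 stood at 14.4 and 18.2 in the PVN (0.34, 0.16 to 0.53) and at 4.91 and 6.48 in the pituitary (0.40, 0.15 to 0.65), with its highest levels in the macrophage or microglia gate. Those were 118 and 142 in the PVN, and 146 and 212 over only 60 and 16 barcodes in the pituitary. The endothelial gate of the PVN followed at 75.7 and 103. There 17.6% and 29.6% of thinned barcodes had a Dab2 UMI, beside 9.95% and 13.1% in the macrophage or microglia gate of the PVN. The steroid enzymes were at or near 0: Cyp11b2, Hsd3b1 and Hsd3b6 had 0 UMIs in the kept cells of both organs, and Cyp11b1 had 0 in the pituitary and, among PVN cells, 3 and 2. Agtr1b had 1 and 1 in the pituitary and, among PVN cells, 2 and 1.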

How the data were processed

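Adrenal, PVN and pituitary cells of control and stressed mice were analysed, 1 library per organ and condition. The authors deposited raw UMI counts, 1 matrix per library. Per the labels' protocols the libraries used 10x Genomics v2 chemistry, and the control and stress suspensions of an organ ran on 1 chip. Cell Ranger 2.1.1 and mm10 are named, per the submitters' processing notes, as is Scanpy without a role. How cells were called, the strand setting and the gene annotation are not given in the sources used here. Adrenal depth was 29059956 and 33836656 UMIs over 2330 and 3183 barcodes.

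Barcodes were kept from 200 genes upwards and up to 25% mitochondrial UMIs. Doublets were scored against simulated doublets (2 per cell, 2000 variable genes, 30 components, 15 neighbours), and a share of 0.8% per 1000 barcodes with the top scores was removed, 39 and 63 in the adrenal, so the rate and not the score set the number. Of these, 38 and 55 had met the Cyp11a1 rule. Cell types were gates on summed marker UMIs (0.1% of a barcode's UMIs, 0.5% for chromaffin cells and 5% for pituitary hormones), with no clustering. Levels are CPM of summed counts with exact Poisson intervals, ratios have conditional binomial intervals with 0.5 UMI added, and shares have Clopper-Pearson intervals after thinning to 3000 UMIs, which no adrenal cell fell below. Observed over product of shares uses the Poisson interval of the cells with both. No test was run because each group is 1 library. Genes with at least 50 UMIs over both libraries were compared, and 1.5-fold was the mark. The script was tested on simulated data. Coordinates and transcripts came from GENCODE vM21, promoters from RefSeq.

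The text names all 9 members, for each member except Akr1c18, which had too few counts, the 3 genes most like it and the 1 most opposed (UMI in at least 5% of cells, counts scaled to 10000), and of each list the extremes; Agtr1a, Kcnk3, Axin2, Pik3c2g, Hsd3b2, Xist, Ddx3y and cell type markers (Cyp11a1, Star, Mc2r, Nr5a1, C1qa, C1qb and C1qc) were named beyond that rule. The members and lists were chosen with earlier results of these data known. The motifs, the shared-word check and the Hsd3b6 classes were chosen after seeing the data. Alternatives varied the Cyp11a1 minimum, the filters, the scaling and the detection limit. Python 3.11.15, numpy 2.4.6, scipy 1.17.1, pandas 2.3.3, scikit-learn 1.9.0 and matplotlib 3.10.9 were used.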

Additional observations from a re-analysis of the deposited data

Results flagged for a closer look

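Wnt4 went opposite ways along the Cyp11b1 gradient. In bin 2 its log2 ratio of stress over control was -0.23 (-0.27 to -0.19), from 1540 and 1313 CPM. In bin 4, with the highest Cyp11b1 share, it was 0.14 (0.05 to 0.23), from 334 and 368. It drew notice because the single library of each condition moved one way in one bin and the opposite way in the other. In bins 1 and 3 the ratio was -0.14 and 0.08. A higher ratio in bin 4 than in bin 2 was not particular to Wnt4. It went from 0.03 to 0.62 for Dab2, from 0.36 to 1.12 for Vsnl1 and from -0.0031 to 1.61 for Agtr1b. For Cyp11b2 it went the other way, from 0.62 to 0.19. Where Cyp11b1 differs between the libraries, like cells can fall into different bins. The difference between the bins was not tested, since each condition has 1 library.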

How the results depend on the processing

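No paired analysis was possible because each group is 1 library. The number of members at least 1.5-fold apart was 1, and 2 with at most 10% mitochondrial UMIs, with no doublets left out, with scaling without mitochondrial genes, with cells thinned to 3000 UMIs, and with the Cyp11b1 bins weighted equally, a setting chosen after seeing the data; the gene added in each was Cyp11b2. Over the 14 settings, reported one included, the log2 ratio ranged from 0.74 to 1.17 for Hsd3b6 (the highest at a Cyp11a1 minimum of 0.5%), from 0.40 to 0.78 for Cyp11b2, from 0.09 to 0.37 for Vsnl1, from 0.02 to 0.16 for Dab2, from -0.36 to -0.30 for Hsd3b1 and from -0.24 to -0.10 for Wnt4. Of the ratios under another setting, 78 lay within the counting interval of the reported one and 24 outside it with the same sign. The 78 include the setting with no minimum other than 1 UMI, which leaves each member's ratio as reported by its construction. Leaving genes out of the scaling, or taking ratios relative to the median of all genes, shifts all members by the same amount. Cyp11b1 turned to -0.0068 and Agtr1b to 0.061 with equally weighted bins.

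The Cyp11b2 share of 4.47% in control became 17.5% at full depth, 0.36% at 2 UMIs and 3.05% at a Cyp11a1 minimum of 0.5%. The share of 6.59% in stress became 19.8%, 0.85% and 3.51%. Cells with both Cyp11b1 and Cyp11b2, over the product of the shares, moved from 0.63 to 0.98 at full depth and 0.33 at 2 UMIs in control, and from 0.62 to 0.88 at full depth in stress. On counts at full depth, which carry each cell's depth, rho turned positive for Hsd3b1 with Cyp11b2 (0.0093 in control), Hsd3b6 (0.0090 in control, 0.0047 in stress), Dab2 (0.027 and 0.099) and Wnt4 (0.079 and 0.11). Apart from depth, the cause of these shifts was not tested.

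Depth limits Cyp11b2 and Agtr1b most, whose counts per cell were mostly 0 or 1. For Akr1c18, with 0 UMIs in control and 1 in stress, only upper limits can be given, such as 0.152 CPM in control. With 1 library per group, no difference between stress and control can be told apart from a difference between pools, dissociations or lanes. Macrophage barcodes held Cyp11b1 and Hsd3b1 UMIs, and where these came from was not tested.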
